A study of Homo sapiens with 22 samples.

Results

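The 10 genes described here make serine and one-carbon units or carry the ATF4 stress response: PHGDH, PSAT1, PSPH, SHMT2, MTHFD2, ASNS, ATF4, ATF3, DDIT3 and TRIB3. They were taken by name from the 19777 genes that have a probeset of their own on the array. All 20 probesets that map to 1 of them and to no other gene were kept, of the 41091 on the array that name a single gene, and 1 further probeset that names PHGDH together with other genes was left out. PSPH, SHMT2 and ATF3 have 3 probesets each, PSAT1, MTHFD2, ASNS and TRIB3 have 2 each, and PHGDH, ATF4 and DDIT3 have 1 each. For each gene, the probeset whose log2 signal was highest on average is called the leading one.

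Expression was profiled on 22 Affymetrix HG-U133 Plus 2.0 arrays, with 1 array per condition for each of 11 neuroblastoma cell lines: hypoxia, at 1% O2, and normoxia, at 20% O2, for 18 hours each. The established lines were GI-LI-N, ACN, SHEP-2, SK-N-BE2(C), IMR-32, SK-N-F1, LAN-1, SK-N-SH, GI-ME-N and SHEP21N, the last cultured in a pair of settings, with and without MYCN overexpression. The settings of SHEP21N are counted as 2 lines, and the culture without overexpression received tetracycline in its medium, which the other cultures lacked. SHEP-2 and both SHEP21N cultures came from a laboratory and the other 8 lines from a cell line collection, so provider and line cannot be told apart. Values are signals of the Microarray Suite algorithm (MAS5), which are relative brightness values on a linear scale. Levels and changes below are on the log2 scale after division of each signal by its array median, and a change is hypoxia minus normoxia within a line. Each line gave 1 array per condition, so the spread of a change is the spread between lines, not between repeated cultures of 1 line.

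Serine is made from a glycolytic intermediate in a short chain of reactions: PHGDH catalyses the entry step, PSAT1 transfers an amino group and PSPH removes the phosphate. SHMT2 then converts serine to glycine in mitochondria and passes its carbon to folate, and MTHFD2 oxidises that folate unit for nucleotide synthesis. ATF4 is a transcription factor translated when eIF2 is phosphorylated, during amino acid shortage, endoplasmic reticulum stress or severe lack of oxygen. Its known target genes include all of the enzymes above, ASNS, which makes asparagine, and the stress regulators ATF3, DDIT3 (also called CHOP) and TRIB3. MYCN, the amplified oncogene of aggressive neuroblastoma, is also known to drive the serine pathway.

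Promoter windows of RefSeq on GRCh38.p14, with 250 bases before and 50 after a start site, held 14 windows for 8 of the 10 genes. They were searched on both strands for the amino acid response element core TGATGNAAN, which ATF4 binds with C/EBP partners, for the E-box CACGTG, which MYC proteins bind, and for the cores of the hypoxia response element, ACGTG and GCGTG. The E-box contains the core ACGTG. The 3 stretches below are shown because they are the first matches of the ATF4 and MYC motifs in these genes, with the matched letters in capitals. They lie at chr7:97872438-97872506 on the minus strand, 68 bases before the ASNS start site, at chr1:212565186-212565254 on the plus strand, 191 bases before an ATF3 start site, and at chr22:39520447-39520512 on the plus strand, 82 bases before an ATF4 start site.
ASNS: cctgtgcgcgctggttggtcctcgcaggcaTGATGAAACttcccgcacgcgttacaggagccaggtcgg
ATF3: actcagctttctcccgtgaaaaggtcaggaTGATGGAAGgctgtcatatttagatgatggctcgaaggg
ATF4: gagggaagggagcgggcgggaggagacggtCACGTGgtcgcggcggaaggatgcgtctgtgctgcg
The core TGATGNAAN was found in 3.61% of all 35116 windows of this length, and ASNS and ATF3 were the 2 genes of the 8 searched that held it. PSPH and SHMT2 were not searched. The E-box was found in 7.26% of all windows and, of these genes, in ATF4. The core ACGTG was found in 21.4% of all windows and in ATF4 and MTHFD2, and GCGTG in 36.5% of all windows and in 6 of the genes: ASNS, ATF4, DDIT3, MTHFD2, PSAT1 and TRIB3. These shares count windows, while a gene was counted when any of its windows matched, and some of these genes have several overlapping windows. The shares and the gene counts are therefore not in the same unit. A match of letters is a description of the window and not a binding site.

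Several arrays stood apart and touch the results below. The normoxic array of SHEP21N labelled with MYCN overexpression had a 3′/5′ signal ratio of 67.3 for GAPDH and 94.0 for ACTB, against at most 1.40 and 5.05 on the other arrays; a high ratio means that the 5′ end of a transcript gave little signal. The ACTB ratio of 5.05 was that of the normoxic array of SHEP21N without overexpression, and all remaining arrays had at most 2.85. All 4 arrays of SHEP21N had a lowest signal of 3.3, which was below 1 on the other arrays. The normoxic arrays of SK-N-SH, IMR-32 and GI-LI-N resembled each other, with correlations of 0.900 to 0.906 over all probesets, against 0.703 to 0.873 for the other 52 pairs of lines. MYCN at its brightest probeset read 33350 to 67630 in GI-LI-N, SK-N-BE2(C), IMR-32, LAN-1 and SK-N-SH, 6119 in hypoxia and 5788 in normoxia in SK-N-F1, and at most 55.3 in the other lines. As background, SHEP cells derive from SK-N-SH, and the origin of the bright MYCN signal on the arrays labelled SK-N-SH was not tested. Of 9 measured sympathetic neuroblast markers, 8 or 9 lay above the array median in the 6 lines with a MYCN signal of at least 5788, and 1 to 4 in the other 5 lines, of which ACN had the lowest number. Of 10 measured mesenchymal markers, 6 to 9 lay above the array median in those 6 lines and 9 or 10 in the other 5. The mesenchymal counts thus overlapped and did not separate the lines. In bulk cultures a lower signal per cell and fewer expressing cells cannot be told apart.

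**Figure D1:**
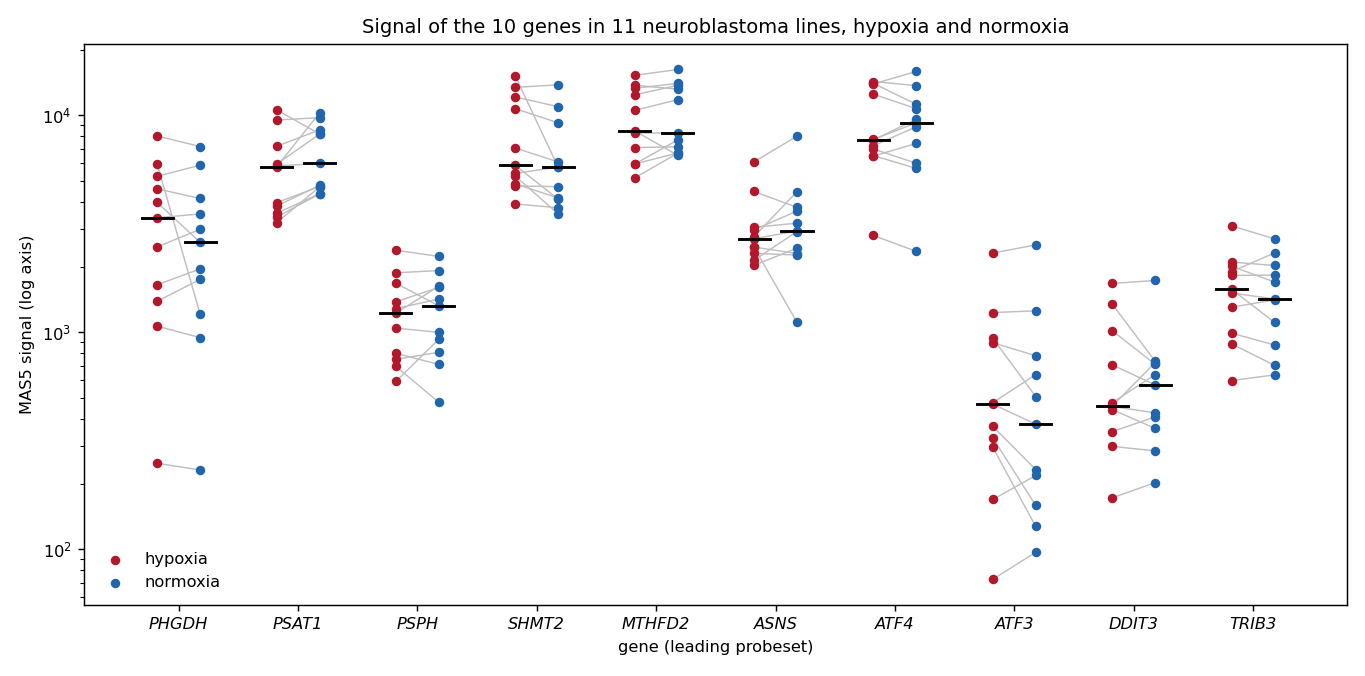
Signal of the leading probeset of each gene on the 22 arrays, on a log axis, with hypoxia (red) left of normoxia (blue) for each gene. Each point is 1 cell line, grey lines join the arrays of a line and black bars are medians over 11 lines; both conditions overlap over nearly their whole range for all 10 genes, and the spread between lines is widest for PHGDH and ATF3.

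The level of all 10 genes differed among the lines. The limma F test for a line effect passed an adjusted p of 0.05 for all 10 leading probesets and for 16 of the 20 probesets. The test passed for 52.4% of all probesets, and for 86.2% of the 12519 genes whose leading probeset had a mean signal of at least 100, so a called line effect was common among bright genes. The share of variance over the 22 arrays that lay between lines had a median of 94.1% for the 10 leading probesets and of 92.6% for those 12519 genes. The remaining 4 probesets were the dimmer ones of ASNS (241082_at), TRIB3 (1555788_a_at) and ATF3 (1554980_a_at and 1554420_at). The line effect is judged against the spread left within a line after the condition, with 1 array per condition and line.

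PHGDH, the entry enzyme of serine synthesis, varied most among the enzymes. It read 249 in GI-ME-N at the lowest, 3371 at the median and 8035 in GI-LI-N at the highest in hypoxia, and 232 in GI-ME-N, 2599 and 7175 in GI-LI-N in normoxia. The log2 level over both conditions was 6.30 in GI-LI-N, 5.93 in LAN-1, 5.71 in SK-N-BE2(C), 5.18 in IMR-32, 5.17 in SK-N-SH, 5.10 in SHEP21N without and 4.76 in SHEP21N with MYCN overexpression, 4.23 in SK-N-F1, 3.79 in ACN, 2.96 in SHEP-2 and 1.65 in GI-ME-N. GI-LI-N stood 25.1-fold above GI-ME-N (limma F test, adjusted p = 0.000606). Neighbours in this order differ beyond the spread within lines where their gap exceeds 1.25, the 95% limit for 2 line means, and 1 of the 10 gaps did: the one between SHEP-2 and GI-ME-N. GI-ME-N was thus the lowest line in both conditions, though its PHGDH signal still lay above the array median. The spread behind this limit includes the array pair of SHEP21N with overexpression, which changed by 2.52. The SE of the hypoxia change from the same fit was 0.245 with that pair and 0.124 without it. The limit was not recomputed without that pair, so further gaps could exceed a smaller one. Here and for the genes below, the limit is that of 1 comparison. It was not adjusted for the 10 gaps looked at in each of the 10 genes.

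PSAT1, the aminotransferase, had a narrower range. Its leading probeset read 3198 to 10600 in hypoxia, with a median of 5775, and 4340 to 10250 in normoxia, with a median of 6009. LAN-1 was highest, 3.21-fold above SHEP21N without overexpression (adjusted p = 0.00787), and its gap of 0.80 to the next line exceeded the limit of 0.64, while the other 10 lines followed each other without such a gap. The dimmer PSAT1 probeset, 220892_s_at, gave a range of 9.94-fold, with its lowest signal, 293, on the normoxic array of SHEP21N with overexpression, on which the leading probeset gave its highest normoxic signal. The probesets of PSAT1 thus opposed each other on that array.

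PSPH, the phosphatase that ends the pathway, was ordered differently. Its leading probeset read 594 to 2387 in hypoxia, with a median of 1226, and 476 to 2239 in normoxia, with a median of 1324. Both SHEP21N cultures were highest, with log2 levels of 4.54 with and 4.35 without overexpression, and ACN was lowest at 2.14, for a range of 5.26-fold (adjusted p = 0.000573). None of its 10 gaps exceeded the limit of 0.70, so the order is a gradient. SHEP-2 was near the low end, at 2.54, by the leading probeset, but by 205048_s_at it read 1885 in hypoxia and 1756 in normoxia, against a median over lines of 738 in hypoxia and 916 in normoxia. The probesets of PSPH therefore disagree on SHEP-2. They also differ in range, with 15.6-fold for 205048_s_at and 12.9-fold for 244819_x_at. By 205048_s_at the highest line was LAN-1, at 2216 in hypoxia and 2311 in normoxia.

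In the mitochondrial folate branch, SHMT2 read 3902 to 15180 in hypoxia, with a median of 5873, and 3506 to 13810 in normoxia, with a median of 5748. It was highest in SHEP21N with overexpression and LAN-1, with log2 levels of 7.10 and 7.03, and lowest in ACN at 4.87, a 4.67-fold range (adjusted p = 0.000781). MTHFD2 read 5148 to 15270 in hypoxia, with a median of 8473, and 6545 to 16260 in normoxia, with a median of 8271. Its range of 3.13-fold was the narrowest of the 10 leading probesets (adjusted p = 0.00118), with SK-N-SH highest at 7.43 and SHEP-2 lowest at 5.79. By the leading probeset, neither gene had a gap between neighbouring lines above its limit. The other probesets gave wider ranges: 9.55-fold for MTHFD2 234976_x_at, 6.73-fold for SHMT2 214437_s_at and 12.4-fold for SHMT2 214095_at.

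ASNS, asparagine synthetase, read 2037 to 6102 in hypoxia, with a median of 2698, and 1110 to 8014 in normoxia, with a median of 2932. GI-LI-N was highest at a log2 level of 6.18 and ACN lowest at 3.67, a range of 5.73-fold (adjusted p = 0.00739), with no gap over the limit of 0.86. The other ASNS probeset, 241082_at, never exceeded 28.7 and lay below the array median on all 22 arrays.

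ATF4, the regulator itself, read 2793 to 14310 in hypoxia, with a median of 7698, and 2359 to 15930 in normoxia, with a median of 9231. SHEP-2 held the lowest signal in both conditions, at a log2 level of 4.31, and the gap of 1.32 to ACN above it exceeded the limit of 0.59. LAN-1 was highest at 7.46, followed within the limit by SK-N-F1 at 7.40 and GI-LI-N at 7.28, and stood 8.85-fold above SHEP-2 (adjusted p = 4.44e-05). Both SHEP21N cultures lay above SHEP-2 in ATF4 by more than the limit, at 6.43 with and 6.03 without overexpression, although the lines are related by name.

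ATF3, a stress-induced repressor and partner of ATF4, had a range of 26.5-fold between SK-N-F1 and GI-ME-N (adjusted p = 6.35e-05). The hypoxic signal of GI-ME-N lay below its array median, so the size of this fold is uncertain. It read 72.8 in GI-ME-N at the lowest, 467 at the median and 2320 in SK-N-F1 at the highest in hypoxia, and 96.9 in GI-ME-N, 377 and 2526 in SK-N-F1 in normoxia. SK-N-F1, at 4.87, lay 1.17 above GI-LI-N, and LAN-1 lay 1.08 above SHEP21N with overexpression, both gaps above the limit of 0.96. The 3 lines SK-N-F1, GI-LI-N and LAN-1 were thus set apart from the other 8. The same 3 lines were the highest for ATF4 but were not set apart there. The ATF4 gap of 0.47 below GI-LI-N was under its limit of 0.59.

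DDIT3, the pro-apoptotic factor CHOP, read 173 to 1680 in hypoxia, with a median of 457, and 203 to 1733 in normoxia, with a median of 572. GI-LI-N, at a log2 level of 4.15, stood above the next line, SK-N-F1 at 3.36, by more than the limit of 0.75, and SK-N-SH was lowest at 1.31 (7.17-fold, adjusted p = 0.000817). TRIB3, a pseudokinase that feeds back on ATF4, read 599 to 3097 in hypoxia, with a median of 1578, and 636 to 2694 in normoxia, with a median of 1425. SHEP21N with overexpression was highest at 4.86, and SK-N-BE2(C) was lowest at 2.54, with a gap of 0.85 below SK-N-SH against a limit of 0.61 (5.00-fold, adjusted p = 0.00129).

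**Figure D2:**
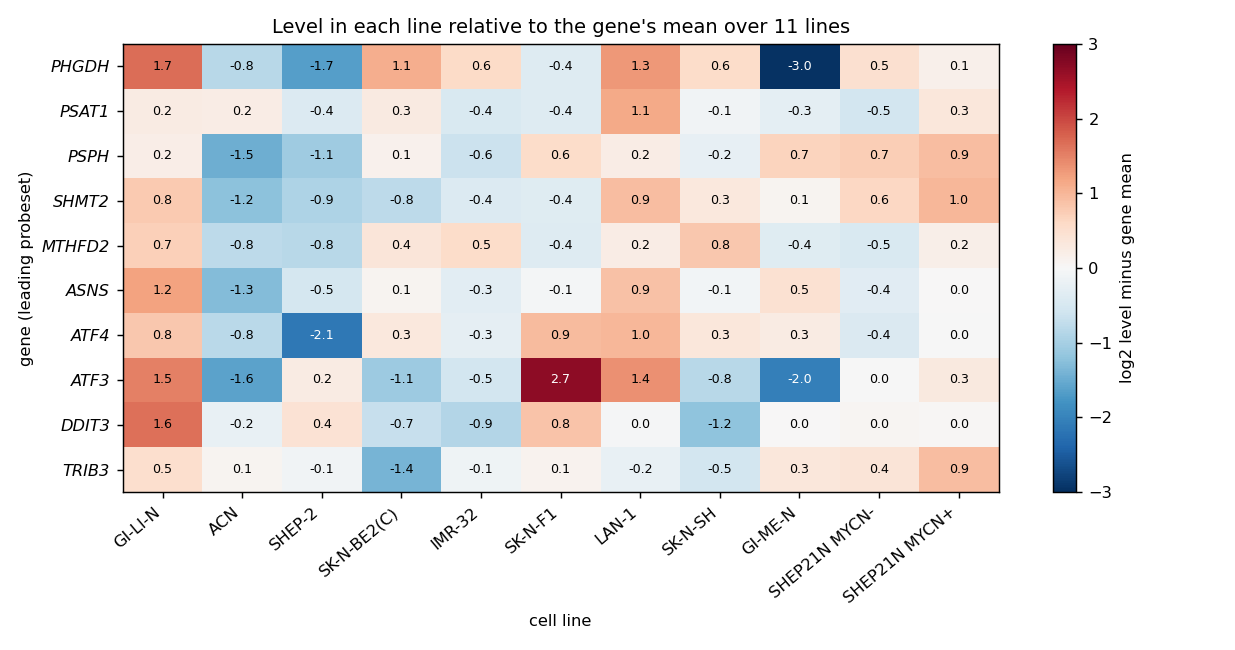
Log2 level of the leading probeset of each gene (rows) in each line (columns), averaged over both conditions, minus the gene's mean over 11 lines; red is above and blue below that mean. PHGDH is far below its mean in GI-ME-N, ATF4 in SHEP-2 and ATF3 in GI-ME-N, and ATF3 is far above its mean in SK-N-F1.

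The order of the lines was set beside MYCN. By the mean level over both conditions, the 5 lines with the brightest MYCN signal held ranks 1 to 5 for PHGDH and for MTHFD2. They held 4 of the 5 highest ranks for ATF4, 3 for PSAT1, SHMT2 and ASNS, 2 for ATF3, and 1 for PSPH, DDIT3 and TRIB3. The step from the fifth to the sixth line was 0.07 for PHGDH and 0.05 for MTHFD2, under the limits of 1.25 and 0.59, so no break separated those lines from the rest. These 5 lines also had 8 or 9 of 9 sympathetic markers above the array median and include the 3 with similar arrays, and the part of either in the order was not tested. This pattern was noticed after the values were seen. On the normoxic arrays alone these lines also held ranks 1 to 5 for PHGDH and MTHFD2, but on the hypoxic arrays alone they did not. In hypoxia SHEP21N with overexpression stood at 6.02 for PHGDH, above LAN-1 at 5.96, and at 6.83 for MTHFD2, above LAN-1 at 6.82. SHEP21N without overexpression, at 5.39 for PHGDH, lay above IMR-32 and SK-N-SH, at 5.11 each. The normoxic PHGDH level of SHEP21N with overexpression was 3.50, on the array with the high 3′/5′ ratios.

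Over the 11 lines the levels of the genes went together in part. Of the 45 pairs of genes, 39 had a positive Pearson correlation of their levels, with a median r of 0.37. This is a description over lines of which some have similar arrays or, for SHEP, a shared origin, and pairs of other genes were not counted. The highest was between PSPH and SHMT2 (r = 0.73, rho = 0.76), followed by PHGDH and MTHFD2 (r = 0.71, rho = 0.75) and by ASNS and ATF4 (r = 0.70, rho = 0.79). The lowest was between PHGDH and TRIB3 (r = -0.23, rho = -0.26). TRIB3 also had r = -0.05 with ATF4, although both belong to the stress response. Among 12509 other genes with a mean signal of at least 100, those most like PHGDH over the 11 line means were PRDX2 (r = 0.96), INSR (r = 0.94) and APBB1 (r = 0.93). The genes most like ASNS were POU6F1 (r = 0.86), ZNF138 and SPATA7 (r = 0.85 each), and those most like TRIB3 were ADA (r = 0.89), PRMT8 (r = 0.89) and FOXO1 (r = 0.88). All of them were picked from the 12509 genes for their high r over only 11 lines. Their r values are a description and were not tested, and some unrelated genes may reach values of this size.

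Hypoxia changed none of the 10 genes past the adjusted limit. In limma with the cell line as a block, 0 of the 20 probesets passed an adjusted p of 0.05, while 26 of all probesets did, which is 0.0476%. At an unadjusted p under 0.05, 1 probeset was higher and 1 lower, so 2 of 20 passed, against 8.09% of all probesets, and a t-test passed 0 of 20 adjusted both paired and unpaired by line, and 2 paired and 0 unpaired at an unadjusted p under 0.05. Among the leading probesets 1 of 10 was lower at that level and none was higher, against 5.58% and 3.16% of all genes. The median log2 change of the 10 leading probesets was -0.003, against -0.04 for the leading probesets of all genes, and the median size of their changes was 0.11, against 0.16 for the 12519 brighter genes. A p that misses the limit does not show that a gene did not change, and the 95% intervals below give the sizes that remain possible.

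**Figure D3:**
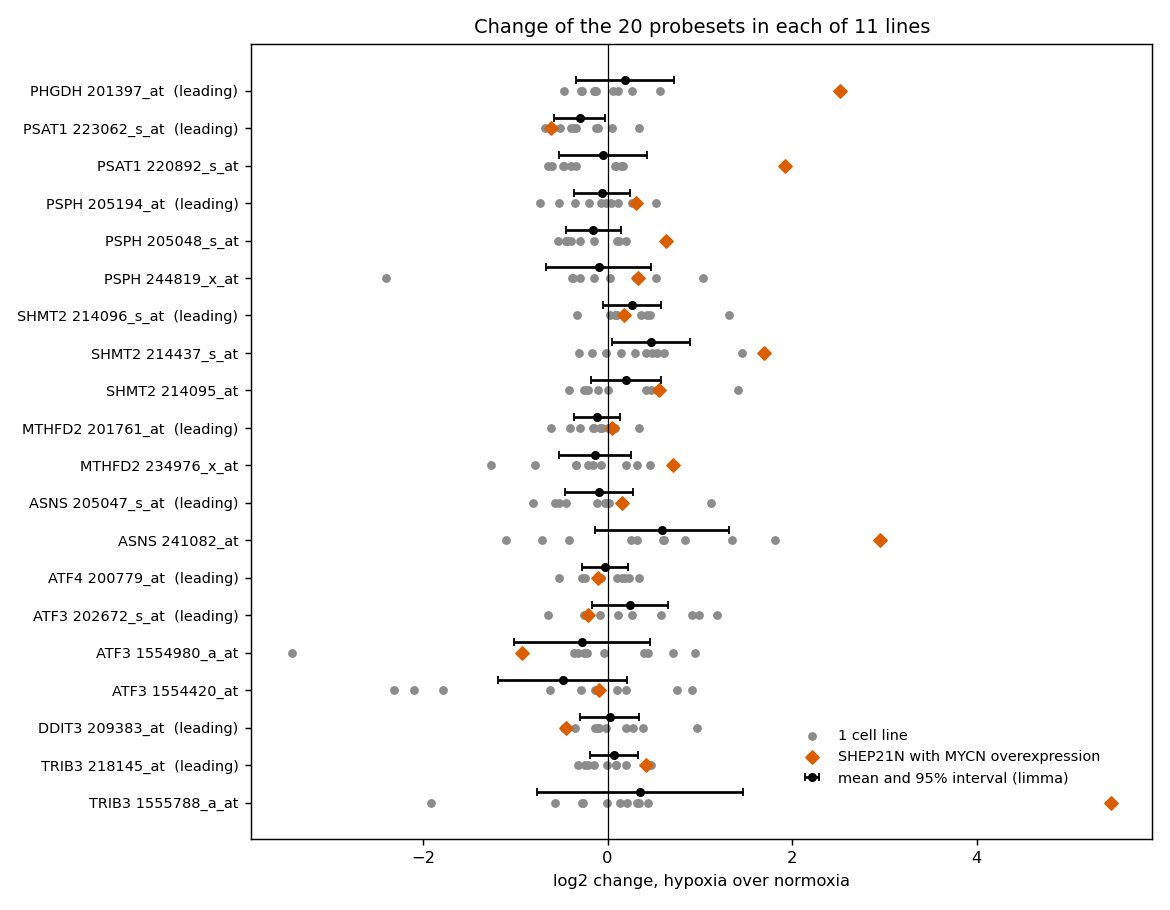
Log2 change, hypoxia over normoxia, of the 20 probesets in each of 11 lines (grey points), with SHEP21N with MYCN overexpression as orange diamonds and the limma mean and 95% interval above each row of points. Points lie on both sides of 0 for all 20 probesets, and the diamond lies far to the right for PHGDH, the dimmer PSAT1 probeset, SHMT2 214437_s_at and the dimmer ASNS and TRIB3 probesets.

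PHGDH averaged a log2 change of 0.19 ± 0.25 (SE, n = 11 lines; 95% interval -0.34 to 0.73; limma adjusted p = 0.87). It was higher in hypoxia in 5 lines and lower in 6. The change was 2.52 in SHEP21N with overexpression, where it read 5973 in hypoxia and 1212 in normoxia on the array with the high 3′/5′ ratios. In the other 10 lines changes ran between -0.47 in SK-N-F1 and 0.57 in SHEP21N without overexpression, and without SHEP21N with overexpression the mean was -0.04 ± 0.12 (adjusted p = 0.944). The sign of the PHGDH mean thus depended on 1 array pair.

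PSAT1 leaned to lower values in hypoxia. Its leading probeset was lower in hypoxia in 9 of 11 lines, with a log2 change of -0.30 ± 0.13 (95% interval -0.58 to -0.03; unadjusted p = 0.0327, limma adjusted p = 0.587), which is a fold of 0.811. SK-N-F1 read 3198 in hypoxia and 4674 in normoxia, and ACN, at 10600 in hypoxia and 8205 in normoxia, went the other way. With 1 line left out the mean stayed between -0.37 and -0.27, and the unadjusted p was under 0.05 in 5 of 11 such fits. The dimmer probeset averaged -0.05 ± 0.22 (adjusted p = 0.973) and was higher in 5 lines, among them SHEP21N with overexpression at 1.92, and averaged -0.24 ± 0.13 without that line (adjusted p = 0.611).

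PSPH showed changes on both sides of 0. Its 3 probesets averaged -0.06 ± 0.14, -0.15 ± 0.14 and -0.10 ± 0.26, with limma adjusted p values of 0.932, 0.799 and 0.945. The third of them, the dim 244819_x_at, read 19.2 in hypoxia and 99.7 in normoxia in ACN, and without ACN it averaged 0.13 ± 0.16. By the leading probeset IMR-32 changed most in the lower direction, at 594 in hypoxia and 930 in normoxia, and ACN most in the other, at 697 in hypoxia and 476 in normoxia.

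By the leading probesets, SHMT2 was the gene most often higher in hypoxia. Its leading probeset was higher in 10 of 11 lines, with a log2 change of 0.26 ± 0.15 (95% interval -0.05 to 0.58; limma adjusted p = 0.661), and GI-ME-N was the exception, at 5397 in hypoxia and 5775 in normoxia. In SHEP21N with overexpression the signal was 13450 in hypoxia and 13810 in normoxia, and it was higher in hypoxia only after division by the array median. LAN-1 moved most, at 15180 in hypoxia and 5748 in normoxia, and without it the mean was 0.16 ± 0.12. The probeset 214437_s_at averaged 0.47 ± 0.19 (unadjusted p = 0.0329, adjusted p = 0.587) and was higher in 8 lines, most of all in SHEP21N with overexpression, at 4088 in hypoxia and 1466 in normoxia, and in LAN-1, at 6405 in hypoxia and 2199 in normoxia. Its mean was 0.35 ± 0.17 without SHEP21N with overexpression (unadjusted p = 0.065) and 0.37 ± 0.19 without LAN-1 (unadjusted p = 0.0772). With 1 line left out, its unadjusted p was under 0.05 in 6 of 11 such fits. All 3 SHMT2 probesets changed by 1.32 to 1.46 in LAN-1, with 214095_at at 2363 in hypoxia and 838 in normoxia. Over all lines 214095_at averaged 0.20 ± 0.17 (limma adjusted p = 0.795) and was higher in hypoxia in 6 lines and lower in 5.

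MTHFD2 was lower in hypoxia in 8 lines, with a log2 change of -0.12 ± 0.12 (95% interval -0.37 to 0.13; limma adjusted p = 0.82). Its changes lay between -0.61 in GI-ME-N, at 5148 in hypoxia and 6682 in normoxia, and 0.34 in ACN, at 8473 in hypoxia and 6545 in normoxia. The dimmer probeset, 234976_x_at, averaged -0.13 ± 0.18 (adjusted p = 0.877) and moved most in SHEP21N without overexpression, at 37 in hypoxia and 86.7 in normoxia; without that line it averaged -0.02. SHMT2 and MTHFD2, neighbours in the same folate branch, thus had means on opposite sides of 0, and neither passed the test.

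ASNS averaged -0.10 ± 0.17 (95% interval -0.46 to 0.27; limma adjusted p = 0.91) and was lower in 7 lines. ACN was an exception of size, at 2467 in hypoxia and 1110 in normoxia, a change of 1.12, and SK-N-BE2(C) moved most in the other direction, at 2758 in hypoxia and 4450 in normoxia. Without ACN the mean was -0.22, and without SK-N-BE2(C) it was -0.02. The other ASNS probeset, 241082_at, averaged 0.59 ± 0.33 (adjusted p = 0.671) at signals of at most 28.7, below the array median on every array, with the highest change in SHEP21N with overexpression, at 28.7 in hypoxia and 4.3 in normoxia. Without that line it averaged 0.36 ± 0.28.

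ATF4 mRNA had one of the smallest changes, -0.03 ± 0.12 (95% interval -0.28 to 0.22; limma adjusted p = 0.969), higher in 5 lines and lower in 6. The interval covers folds of 0.825 to 1.17, and no line reached a 2-fold change. The arrays measure mRNA, and ATF4 is known to be controlled largely by translation, which was not measured here.

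ATF3 averaged 0.24 ± 0.19 (95% interval -0.17 to 0.65; limma adjusted p = 0.768) and moved differently from line to line. It was higher in hypoxia in ACN (295 in hypoxia, 127 in normoxia), SHEP-2 (938 in hypoxia, 505 in normoxia), SK-N-BE2(C) (326 in hypoxia, 159 in normoxia) and IMR-32 (369 in hypoxia, 233 in normoxia). In GI-ME-N it read 72.8 in hypoxia and 96.9 in normoxia. Without ACN the mean was 0.15 ± 0.18, without SHEP-2 0.16 ± 0.19, and it was at most 0.33 with 1 line left out. The other ATF3 probesets, with lower signals, averaged -0.28 ± 0.34 and -0.49 ± 0.32. The mean of 1554980_a_at was 0.04 ± 0.19 without SK-N-SH, where it read 10.8 in hypoxia and 127 in normoxia. The probeset 1554420_at lay above the array median on 12 of 22 arrays, and its hypoxic signals of 16.7 in LAN-1, 21.5 in SK-N-BE2(C) and 22.6 in IMR-32 went with its lowest changes.

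DDIT3 averaged 0.02 ± 0.15 (95% interval -0.30 to 0.34; limma adjusted p = 0.981). SHEP-2 read 1350 in hypoxia and 736 in normoxia, while SHEP21N without overexpression read 474 in hypoxia and 638 in normoxia and SHEP21N with overexpression read 457 in hypoxia and 725 in normoxia. TRIB3 averaged 0.07 ± 0.12 (95% interval -0.19 to 0.33; limma adjusted p = 0.903), with changes from -0.32 in ACN to 0.48 in SK-N-SH. Its dimmer probeset read 340 in hypoxia and 9 in normoxia in SHEP21N with overexpression, a change of 5.46 against a signal far below the median of that array, 107, while the leading one read 3097 in hypoxia and 2694 in normoxia there. Without that line the dimmer TRIB3 probeset averaged -0.16 ± 0.22, against 0.35 ± 0.51 with it.

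By line, ACN and SHEP-2 leaned to higher values in hypoxia and GI-ME-N to lower ones. In ACN 8 of the 10 leading probesets were higher, with a median change of 0.31, against -0.06 for the 12519 brighter genes on the same arrays, and in SHEP-2 9 of 10 were higher, with a median of 0.18 against 0.09. In GI-ME-N 9 of 10 were lower, with a median of -0.43 against -0.23. In GI-LI-N and SK-N-F1 8 of 10 were lower, with medians of -0.12 against -0.06 and -0.28 against -0.16. With 1 array per condition these counts in a line have no replicate check, and the share of all genes going the same way in each line was not counted. The changes of the genes went together in part: 35 of 45 pairs had a positive r over the 11 lines, with a median of 0.24, and pairs of other genes were not counted. The highest was between PSAT1 and ASNS (r = 0.73, rho = 0.46), which was 0.83 without SHEP21N with overexpression, and the lowest between PHGDH and DDIT3 (r = -0.38, rho = -0.38), which was -0.09 without it.

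The hypoxia change was compared between the 3 SHEP lines and the other 8. Of the 20 probesets 0 passed an adjusted p of 0.05 for this difference, as did 0 of all probesets on the array. At an unadjusted p under 0.05, 3 of 20 passed, against 9.94% of all probesets. PHGDH averaged a change of 1.12 in the SHEP lines and -0.16 in the other lines, a difference of 1.28 ± 0.42 (unadjusted p = 0.0114, limma adjusted p = 0.415). The dimmer PSAT1 probeset averaged 0.72 in the SHEP lines and -0.33 in the other lines (unadjusted p = 0.0235, adjusted p = 0.444), and the dimmer TRIB3 probeset 2.00 in the SHEP lines and -0.27 in the other lines (unadjusted p = 0.0414, adjusted p = 0.483). The TRIB3 difference of 2.27 was 1.44 with signals below 50 set to 50. All 3 rested in part on SHEP21N with overexpression: without it the differences were 0.58 for PHGDH (unadjusted p = 0.049), 0.45 for the PSAT1 probeset (unadjusted p = 0.165) and 0.54 for the TRIB3 probeset (unadjusted p = 0.345). Without that line the smallest p among these probesets was that of the dimmer MTHFD2 probeset, 234976_x_at, in the opposite direction, at -1.01 (unadjusted p = 0.00934, adjusted p = 0.389), against -0.43 ± 0.40 with all lines (unadjusted p = 0.305). PHGDH was still higher in hypoxia in SHEP-2, at 1067 in hypoxia and 945 in normoxia, and in SHEP21N without overexpression, at 3965 in hypoxia and 2599 in normoxia.

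SHEP21N with and without MYCN overexpression was compared in each condition, with 1 array each and therefore no test. Only the culture without overexpression received tetracycline, so the drug and MYCN overexpression cannot be told apart in any of these differences. MYCN itself was checked first. At the probeset 209756_s_at it read 830 with and 25.3 without overexpression in hypoxia, but 13.7 with and 28.7 without in normoxia. No MYCN probeset exceeded 50.7 on the normoxic array labelled with overexpression, and the sources used here do not give which probesets cover the introduced gene. Its brightest probeset, 209757_s_at, read 6 with and 12.7 without overexpression in hypoxia, and 19 with and 6 without in normoxia. A raised MYCN signal was therefore seen in the hypoxic pair, at some probesets, and not in the normoxic pair.

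In hypoxia 9 of the 10 leading probesets were higher with overexpression, with a median log2 difference of 0.41, against 0.02 for the 12519 brighter genes. Of those 12519 genes, 6508 were higher. MTHFD2 read 10530 with and 5956 without overexpression (difference 0.86), PSAT1 5775 with and 3532 without (0.75), TRIB3 3097 with and 2016 without (0.66), and PHGDH 5973 with and 3965 without (0.63). ASNS read 3047 with and 2311 without, and DDIT3, at 457 with and 474 without, was the one gene that was not higher. Serine pathway enzymes, the folate enzymes and ASNS thus all had higher values on the hypoxic array with overexpression.

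In normoxia 7 of the 10 were higher with overexpression, with a median of 0.38, against -0.16 for the brighter genes, and the other 3 were PHGDH, PSPH and DDIT3. Of the 12519 brighter genes, 5102 were higher. PHGDH read 1212 with and 2599 without overexpression, a difference of -1.32, while PSAT1 read 10250 with and 4347 without, a difference of 1.02. PSPH differed by 0.00 and DDIT3 by -0.03. PHGDH, the dimmer PSAT1 and TRIB3 probesets and SHMT2 214437_s_at (1466 with, 2117 without) were low on the array with the high 3′/5′ ratios. The normoxic array without overexpression had an ACTB ratio of 5.05. The part of these ratios in the values was not tested, and neither pair shows what another culture of the same line would give.

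**Figure D4:**
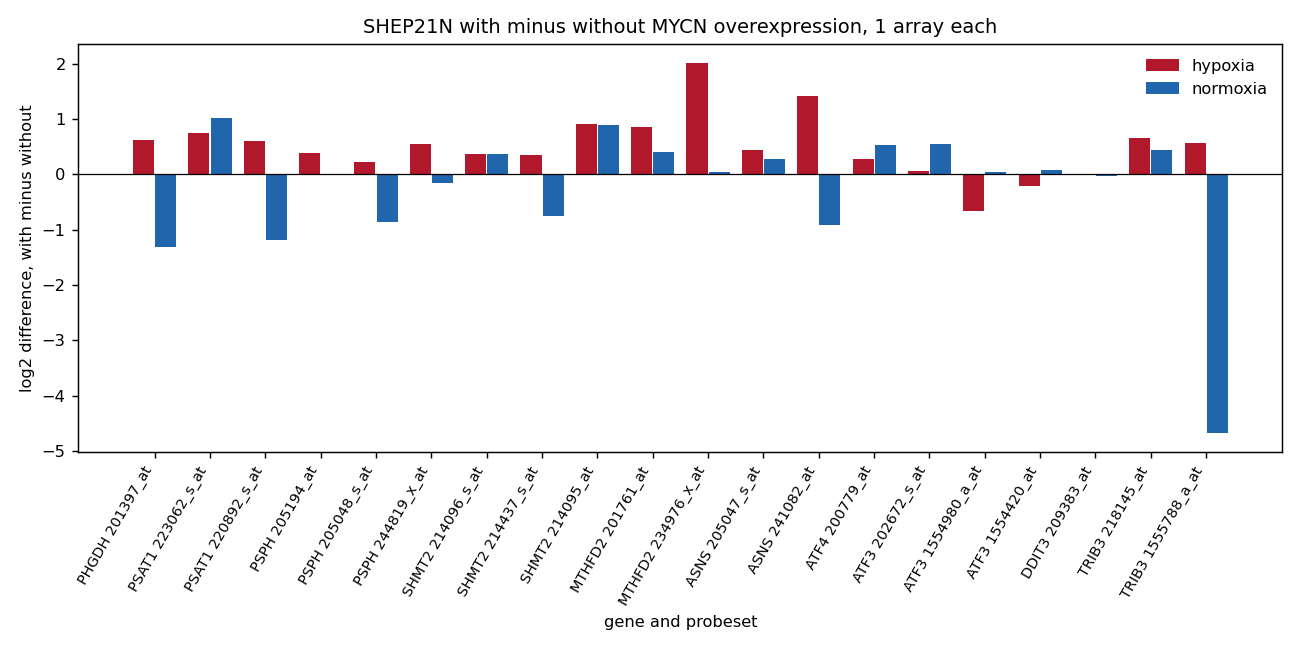
Log2 difference of SHEP21N with minus without MYCN overexpression for each of the 20 probesets, in hypoxia (red) and normoxia (blue), with 1 array each and no error. Only the culture without overexpression received tetracycline, so the drug and overexpression cannot be told apart. Bars point up for 17 of 20 probesets in hypoxia and for 11 in normoxia, and the TRIB3 probeset 1555788_a_at in normoxia is the longest bar, at -4.67. Of the 12519 brighter genes, 6508 were higher with overexpression in hypoxia and 5102 in normoxia.

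Genes around the pathway were counted from lists of known members, each by its leading probeset. Of all genes 0.0657% were higher and 0.00506% lower in hypoxia at an adjusted p of 0.05. At an unadjusted p under 0.05, 3.16% of all genes were higher and 5.58% lower, and the counts at that level below stand against these shares. Of 9 measured genes known to respond to hypoxia, 7 were higher at the adjusted limit, with a median log2 change of 1.99, among them ANKRD37, ALDOC and BNIP3, each higher in all 11 lines. All 9 belong to the signature that the study selected on these same arrays, so their direction is not independent evidence. With SK-N-SH, IMR-32 and GI-LI-N averaged into 1 line, no probeset on the array passed the adjusted limit, and these calls are then lost.

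Of 25 other measured target genes of ATF4, 1 was higher at the adjusted limit: DDIT4, an inhibitor of mTORC1 that is also a target of the hypoxia-inducible factors, with a log2 change of 2.33 ± 0.26 (limma adjusted p = 0.00841), higher in 11 of 11 lines; it too is a gene of that signature, and its call is also lost with those 3 lines averaged. At an unadjusted p under 0.05, 3 were higher and 1 lower, and the median change was 0.08. VLDLR, a lipoprotein receptor, averaged 0.74 ± 0.23 (unadjusted p = 0.00645) and SLC38A2, a glutamine and alanine transporter, 0.31 ± 0.12 (unadjusted p = 0.0255), and neither passed the adjusted limit.

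Of 22 other genes of one-carbon, glycine and serine handling 0 passed the adjusted limit, and 3 were lower and 0 higher at an unadjusted p under 0.05, with a median change of -0.14. They were MTHFD2L (-0.40 ± 0.14), a relative of MTHFD2, GCSH (-0.31 ± 0.13), a subunit of the glycine cleavage system, and SLC25A32 (-0.25 ± 0.10), the mitochondrial folate carrier, with unadjusted p values of 0.0125, 0.0285 and 0.0365. Of 16 cytosolic tRNA synthetases 0 passed the adjusted limit and 2 were lower at the unadjusted one, RARS1 (-0.43 ± 0.13) and FARSB (-0.34 ± 0.12).

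Of 18 genes of the eIF2 kinases and eIF2 control 0 passed the adjusted limit and 4 were lower at the unadjusted one. EIF2S1, the alpha subunit of eIF2 that the kinases phosphorylate, averaged -0.44 ± 0.10 and was lower in 11 of 11 lines (unadjusted p = 0.00118, limma adjusted p = 0.326), and EIF2B3, a subunit of its exchange factor, averaged -0.56 ± 0.14 and was lower in 10 lines (unadjusted p = 0.00218). Of 21 chaperones and sensors of the unfolded protein response 0 passed the adjusted limit, 1 was higher and 2 were lower at the unadjusted one: ERO1A, an oxidase of protein folding that is also induced by hypoxia, at 0.35 ± 0.15, and the cochaperones DNAJB11 and SDF2L1, at -0.40 ± 0.13 and -0.49 ± 0.20.

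**Figure D5:**
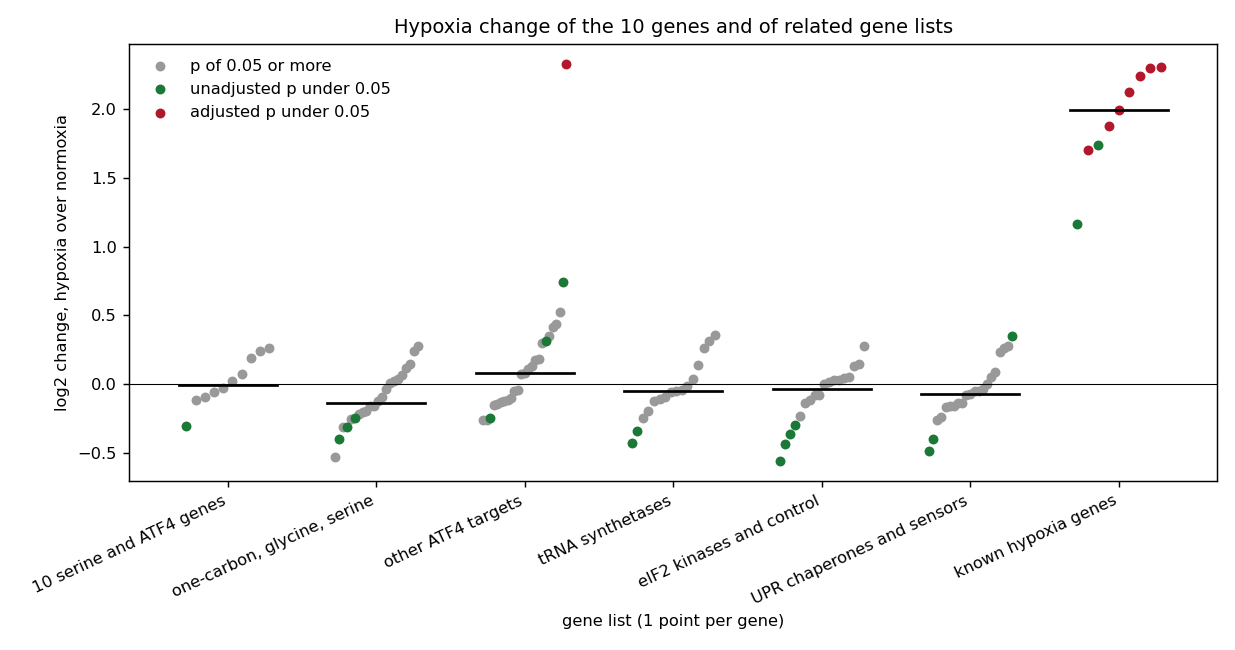
Log2 change, hypoxia over normoxia, of the 10 genes and of the genes in 6 related lists, each by its leading probeset; black bars are list medians, red points pass an adjusted p of 0.05 and green points an unadjusted p of 0.05 only. Medians of the 10 genes and of 5 of the lists lie between -0.14 and 0.08, and that of the known hypoxia genes lies at 1.99.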

How the data were processed

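Total RNA of 11 neuroblastoma lines was hybridised by the authors to 22 arrays. The deposited values are MAS5 signal intensity on a linear scale, scaled by the authors to an average of 500; the MAS5 version was not given in the sources used here. The 4 SHEP21N arrays are rounded to 1 decimal. The authors' division by array and gene medians is not in these values.

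Signals were expressed as log2 of the ratio to the median of their own array. Probesets were named through the platform annotation, updated by gene ID: 41091 named a single gene, 1801 several and 11783 none or were controls. All probesets were fitted in limma 3.58.1 (R 4.3.3) with cell line as a block, which pairs both arrays of a line by its label, and adjusted by Benjamini and Hochberg at 0.05. The same fit gave the F test over line coefficients, and an interaction term compared the 3 SHEP lines with the other 8. No filter or floor on low signals was used. The number of arrays limits the precision. The code was tested on simulated data with planted changes.

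All 10 genes and all their probesets are reported, with the brightest MYCN probeset beside line levels and, from each list, at most the 3 genes with the smallest p; the other MYCN probesets and array checks were added after the values were seen. The genes and lists were chosen with earlier results of these data known. Alternatives tried were quantile normalization, no division by the array median, a floor of 50, a mean signal of at least 100, no block, the methods' t-test (paired and unpaired, since the methods do not say which), the mean over all probesets of a gene, an adjusted p of 0.01, related lines averaged, both SHEP21N lines left out and each line left out. Figures were drawn with matplotlib 3.10.9. The tumour profiles of the study were not analysed here.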

Additional observations from a re-analysis of the deposited data

How the results depend on the processing

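The count of 0 of 20 probesets past the adjusted limit held in every setting and with each line left out. Of 110 values of the 10 genes under other settings, 104 kept their sign and 6 did not, the lowest adjusted p being 0.272. These 6 were ATF4, at 0.002 with the values as deposited and 0.014 with SK-N-SH, IMR-32 and GI-LI-N averaged; ASNS and ATF3, at 0.25 and -0.18 with the mean of all probesets; and PHGDH, at -0.015 with the SHEP lines averaged and -0.11 with both SHEP21N lines left out. With 1 line left out, PHGDH ran between -0.042 and 0.257, PSPH between -0.118 and 0.007, ATF4 between -0.064 and 0.023 and DDIT3 between -0.073 and 0.07, and 6 of 110 values changed sign.

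The 2 probesets at an unadjusted p under 0.05 became 1 with quantile normalization or the SHEP lines averaged and 0 with no block, the unpaired t-test, SK-N-SH, IMR-32 and GI-LI-N averaged or both SHEP21N lines left out, and ranged between 0 and 3 with 1 line left out. The 26 called of all probesets became 94 with the floor, 95 with the filter, 59 with a paired t-test, 7 with an unpaired one, 9 with no replicate block, 8 at an adjusted p of 0.01, 9 with the SHEP lines averaged, 0 with SK-N-SH, IMR-32 and GI-LI-N averaged, 12 without both SHEP21N lines, and between 8 and 24 with 1 line left out. The paired fit and the fit with no block thus gave the same 0 of 20. The line effect was called in 15 to 19 of 20 probesets. In normoxic SHEP21N, 9 of 10 leading probesets were higher with overexpression as deposited or after quantile normalization, against 7. The cause of these shifts was not tested. Signals near the array floor, such as those of ASNS 241082_at, carry little measured difference.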
